A study of Mus musculus with 7 samples.

Results

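The LIF, gp130 and STAT3 pathway was examined through 10 genes, taken by name from the 52636 genes of the count table through their Ensembl identifiers: Lif, Lifr, Il6st, Il6ra, Jak1, Jak2, Stat3, Socs2, Socs3 and Pim1. All 10 were in the table and all 10 passed the filter on low counts. RNA had been sequenced from pools of 10 inner cell masses (ICMs) of mouse embryos of the genotype Sox2Cre;CRAFR26, which carry a construct that activates ERK through cRAF when tamoxifen is present, in mice made from targeted embryonic stem cells (clones 4 and 8). Cre under Sox2 control acts in the pluripotent lineage. The embryos had been flushed at embryonic day 2.5, cultured for 24 h in KSOM with the FGF receptor inhibitor PD173074 at 250 nM, and stripped of their trophectoderm by immunosurgery. The vehicle group received ethanol for 4 h (3 libraries: clone4_1, clone4_2 and clone8_1) and the tamoxifen group 250 nM 4-hydroxytamoxifen for 4 h (4 libraries: clone4_1, clone4_2, clone8_1 and clone8_2). Genotype and FGF receptor inhibitor were common to both groups, so the controls were not untreated embryos. A further vehicle library had been discarded by the authors at quality control. The labels do not say whether the pools of a group came from separate litters, so p-values measure only the spread between these libraries.

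LIF is a secreted cytokine that binds its receptor Lifr, which then pairs with gp130, the shared signalling chain encoded by Il6st. Janus kinases on the receptor tails phosphorylate the transcription factor STAT3, which enters the nucleus and activates genes that include its own inhibitor Socs3. The pathway sustains naive pluripotency in mouse embryonic stem cells and preserves the epiblast during embryonic diapause. In the blastocyst Lif is known as a product of the trophectoderm, and the receptor chains as products of the ICM.

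The promoters of the 10 genes were searched for the letters that STAT proteins bind. STAT dimers bind the palindrome TTCNNNGAA, which reads the same on either strand. RefSeq promoter windows (250 bases before to 50 after an annotated start, build GRCm38.p6) were found for 9 of the 10 genes, 11 windows in all, and the motif occurred in 1 of them, that of Socs3. Of all 32851 RefSeq windows, 8.30% held it. The stricter form TTCCNGGAA, every match of which is also a match of TTCNNNGAA, was in 1.15% of all windows and in 0 of the 11. The 250 bases before the RefSeq start of Socs3 on the minus strand (chr11:117969367-117969616) are shown because they hold the only match among the 10 genes, in capitals. The GENCODE annotation, used for coordinates below, places Socs3 at 117966079 to 117970047. The shown bases thus lie before the RefSeq start but within the GENCODE gene.
Socs3: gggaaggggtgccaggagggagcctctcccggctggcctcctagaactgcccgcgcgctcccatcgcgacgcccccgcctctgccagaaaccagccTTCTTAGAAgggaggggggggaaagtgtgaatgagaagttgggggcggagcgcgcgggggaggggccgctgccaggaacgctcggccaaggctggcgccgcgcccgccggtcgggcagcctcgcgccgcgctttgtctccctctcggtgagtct
A match is a string of letters and not a shown binding site, and the absence of one says nothing of sequence outside these windows.

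Total counts per library ran from 22981498 to 42294719. Vehicle clone8_1 and tamoxifen clone8_1 stood apart, with mean correlations to the other libraries of 0.929 and 0.931 against 0.944 to 0.955. Vehicle clone8_1 was also low in short transcripts: the median deviation of 2741 genes with a typical transcript under 1000 nt was -1.01 on the log2 scale, and that of 4171 genes from 1000 nt to under 2000 nt was 0. The typical transcripts of the 10 pathway genes measured 1794 to 5991 nt. The label calls the samples epiblast. Summed over 10 markers each, epiblast markers stood at 1665 to 2044 CPM (counts scaled to a common library size with TMM factors) in vehicle and 1708 to 2199 CPM in tamoxifen libraries, and primitive endoderm markers at 845 to 1148 and 884 to 1031 CPM. Trophectoderm markers stood at 8530 to 11227 CPM in vehicle and 6546 to 9534 CPM in tamoxifen libraries, so markers of all 3 lineages were counted in each library. Whether cells of each lineage were present was not tested, since other cells can also express a marker. All 10 trophectoderm markers had a fold change below 0. Fold changes were above 0 for 7 of 9 tested epiblast markers and 6 of 9 tested primitive endoderm markers, against 51.7% of all tested genes. Of the 30 markers only Sox7, a primitive endoderm gene, was at 0 in some library.

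Transcripts of every step of the pathway were counted in these pools, in which markers of all 3 lineages were also counted. Stat3, the transcription factor, was the most abundant of the 10. Per kilobase of typical transcript, Stat3 had a median of 80.6 CPM per kb (57.8 to 110 over the 7 libraries) and ranked 1 in each library. Pim1 (24.6, 18.8 to 36.3), a serine/threonine kinase that promotes survival, Jak1 (19.9, 11.8 to 27.5) and Socs2 (17.4, 16.1 to 31.5) followed with overlapping ranges. Their order among themselves was therefore not settled by these libraries. Socs3 (6.56, 4.37 to 14.1) and Il6st (5.68, 3.06 to 12.04) formed the next tier, and Socs3 lay below Socs2 in 7 of 7 libraries.

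The receptor genes Il6ra and Lifr and the ligand gene Lif had lower medians per kb of typical transcript than Il6st. Il6ra (3.13, 1.68 to 4.01 CPM per kb), Lifr (2.77, 0.237 to 4.22) and Lif (2.05, 1.71 to 5.16) had overlapping ranges. Per kb of typical transcript, Il6st exceeded Lifr in all 7 libraries, by a median of 2.63 times, with the ratio running from 1.10 to 24.9. The ratio was highest in vehicle clone8_1, where Lifr had 33 counts, and lowest in vehicle clone4_2, where it had 460. In vehicle clone4_2 the order depended on the lengths used: in CPM not divided by length, Lifr was the higher (14.3 against 12.9). Jak2 was the lowest (0.572, 0.278 to 1.06), and Jak1 exceeded it by 11.1 to 67.6 times, so the ranges of the 2 kinases did not meet. When the longest transcript replaced the typical one, Stat3 stayed highest at a mean of 49.9 CPM per kb and Jak2 lowest at 0.633. The mean of Il6st went from 6.22 to 1.99, below those of Lif (2.62) and Il6ra (2.06). In CPM not divided by length, the median of Il6ra (18.8) was above that of Il6st (15.8).

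**Figure D1:**
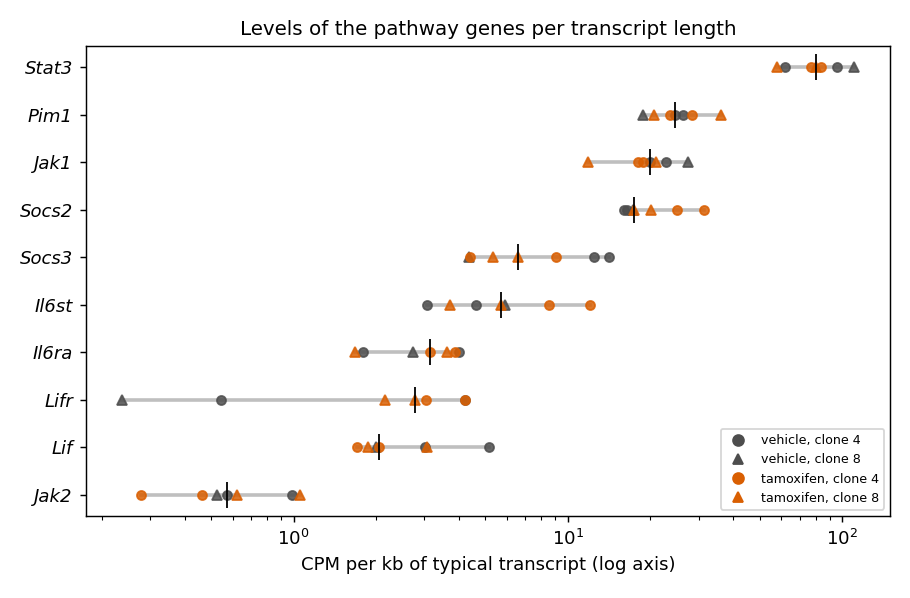
Levels of the 10 pathway genes in CPM per kb of typical transcript on a log axis, with 1 point per library (colour for condition, shape for clone), a grey line for the range and a black tick for the median. Stat3 lies apart at the top (57.8 to 110), Jak2 at the bottom (0.278 to 1.06), and the Lifr points of 2 vehicle libraries lie far to the left of the other 5.

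The comparison of tamoxifen with vehicle asks whether the transcripts of this pathway differ after 4 h of 4-hydroxytamoxifen, given to switch on ERK. ERK activity itself is not measured by these libraries. None of the 10 genes was called, and neither was any of the 16248 genes tested (0% at an adjusted p under 0.05, edgeR quasi-likelihood F-test, Benjamini-Hochberg). DESeq2 called 4 genes, of which 0 were among the 10. The adjusted p of the 10 genes ran from 0.794 to 0.951. At an unadjusted p under 0.05 there was 1 of the 10, Socs2, where the share of all tested genes was 5.97%. The groups did not overlap in CPM for 1 of the 10, again Socs2, where the share of all tested genes was 8.45%. Both counts are near the background. Of the 10 fold changes 5 were above 0 and 5 below, with a median of -0.04 on the log2 scale, against 0.02 over all tested genes. In pooled tissue such as this, fewer cells of a type and less RNA per cell cannot be told apart.

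**Figure D2:**
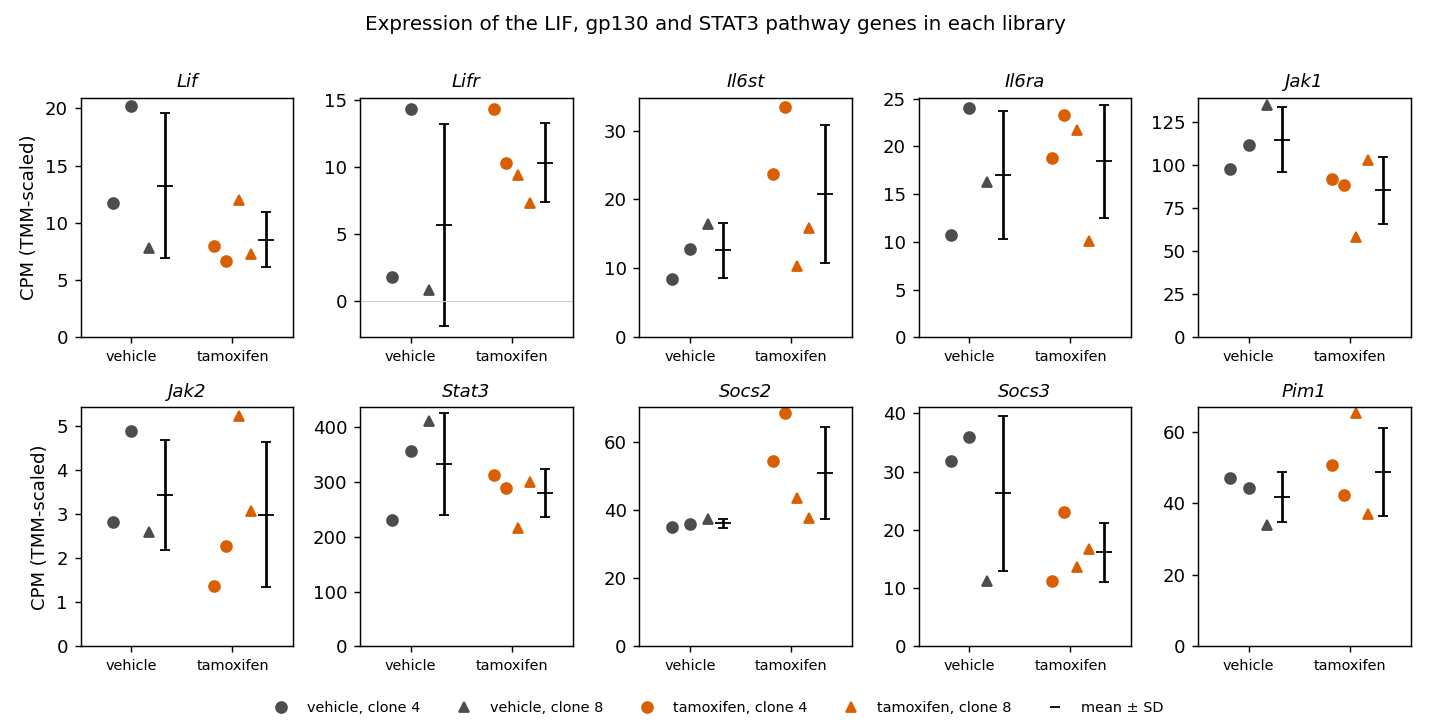
CPM of each pathway gene in the 3 vehicle and 4 tamoxifen libraries, on linear axes, with the group mean and SD beside the points (circles, clone 4; triangles, clone 8). In 9 panels the groups overlap, and in the panel of Socs2 the highest vehicle library (37.4 CPM) lies just under the lowest tamoxifen library (37.8 CPM).

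The ligand gene Lif (ENSMUSG00000034394, chromosome 11, 4257557 to 4272514, plus strand) was counted in every library. It stood at 11.8, 20.2 and 7.80 CPM in vehicle clone4_1, clone4_2 and clone8_1, the order kept for all vehicle values below. In tamoxifen clone4_1, clone4_2, clone8_1 and clone8_2, again the order kept below, it stood at 8.00, 6.68, 12.03 and 7.31 CPM. The groups overlapped, since vehicle clone8_1 lay within the tamoxifen range and tamoxifen clone8_1 above vehicle clone4_1. The vehicle mean was 13.2 ± 6.32 CPM (SD, n = 3) and the tamoxifen mean 8.50 ± 2.41 CPM (SD, n = 4). The log2 fold change was -0.64 ± 0.36 (SE), with a 95% interval from -1.43 to 0.16. Without vehicle clone4_2, the library highest in Lif, it was -0.20, and without vehicle clone8_1 it was -0.92. Summed trophectoderm markers were highest in vehicle clone4_1 (11227 CPM) and, among tamoxifen libraries, in clone8_1 (9534 CPM), the tamoxifen library highest in Lif. In vehicle clone4_2, highest of all in Lif, they were at 8530 CPM, the lowest of the vehicle group. The part of trophectoderm RNA in the values of Lif was not tested.

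The receptor gene Lifr (ENSMUSG00000054263, chromosome 15, 7090614 to 7197489, plus strand) varied most of the 10. Vehicle libraries held 1.84, 14.3 and 0.804 CPM, from 74, 460 and 33 counts. Tamoxifen libraries held 14.3, 10.3, 9.39 and 7.33 CPM. All 4 tamoxifen libraries thus lay well above 2 vehicle libraries, while vehicle clone4_2 was as high as the highest of them. Tamoxifen against vehicle gave a log2 fold change of 0.88 ± 0.79 (SE), with an interval from -0.87 to 2.62. Without vehicle clone4_2 it was 2.96 (edgeR adjusted p = 0.716), and without vehicle clone8_1 it was 0.35. The coefficient of variation over the 7 libraries was 65.1%, against a median of 32.3% for 1470 genes with a mean level within a factor of the square root of 2.

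Il6st (ENSMUSG00000021756, chromosome 13, 112464070 to 112510086, plus strand), encoding gp130, stood at 8.51, 12.9 and 16.4 CPM in vehicle libraries. In tamoxifen libraries it stood at 23.7, 33.5, 10.3 and 15.8 CPM. Both clone 4 tamoxifen libraries lay above every vehicle library, and both clone 8 tamoxifen libraries lay within the vehicle range. Tamoxifen exceeded vehicle by a log2 fold change of 0.72 ± 0.40 (SE), with an interval from -0.16 to 1.604. This fold change was 0.38 without tamoxifen clone4_2 and 0.95 without vehicle clone8_1. Il6ra (ENSMUSG00000027947, chromosome 3, 89864059 to 89913196, minus strand), the chain that makes gp130 responsive to interleukin 6, ranged from 10.7 to 24.0 CPM in vehicle and from 10.1 to 23.3 CPM in tamoxifen libraries. Its log2 fold change was 0.12 ± 0.35 (SE), and the groups covered nearly the same range.

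The kinase gene Jak1 (ENSMUSG00000028530, chromosome 4, 101152367 to 101265282, minus strand) stood at 97.5, 111 and 135 CPM in vehicle libraries and at 92.0, 88.3, 57.9 and 103 CPM in tamoxifen libraries. All tamoxifen libraries but clone8_2 lay below every vehicle library, and clone8_2 lay between vehicle clone4_1 and clone4_2. The log2 fold change was -0.43 ± 0.21 (SE), with an interval from -0.91 to 0.05. It was -0.15 without both libraries numbered clone8_1, which held the highest and the lowest value, and -0.55 without vehicle clone4_1. Jak2 (ENSMUSG00000024789, chromosome 19, 29251828 to 29313080, plus strand), the kinase of many cytokine receptors, was rare, with 53 to 157 counts in a library. It ranged from 2.61 to 4.89 CPM in vehicle and from 1.37 to 5.24 CPM in tamoxifen libraries, with a log2 fold change of -0.20 ± 0.50 (SE).

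Stat3 (ENSMUSG00000004040, chromosome 11, 100885098 to 100939540, minus strand) stood at 231, 355 and 411 CPM in vehicle libraries. In tamoxifen libraries it stood at 313, 288, 215 and 300 CPM. As for Jak1, vehicle clone8_1 was the highest of all libraries and tamoxifen clone8_1 the lowest, and the groups overlapped. Across all 7 libraries the log2 fold change was -0.25 ± 0.22 (SE), with an interval from -0.74 to 0.24. In clone 4 alone it was 0.03, and without vehicle clone4_1 it was -0.48. These are transcript levels, and the activity of STAT3, which depends on its phosphorylation, was not measured.

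Socs2 and Socs3 encode inhibitors that STAT proteins induce and that act back on cytokine receptors and their kinases, and the fold changes of these 2 genes had opposite signs. Socs2 (ENSMUSG00000020027, chromosome 10, 95385362 to 95417180, minus strand) lay close together in vehicle libraries, at 34.9, 35.8 and 37.4 CPM. Tamoxifen libraries held 54.3, 68.4, 43.5 and 37.8 CPM, all above the vehicle libraries, with the larger differences in clone 4. Means were 36.1 ± 1.28 CPM (SD, n = 3) and 51.0 ± 13.5 CPM (SD, n = 4). The log2 fold change was 0.50 ± 0.22 (SE), with an interval from 0.01 to 0.99. The edgeR p was 0.0472 before and 0.794 after adjustment. Without tamoxifen clone4_2, the library highest in Socs2, the log2 fold change was 0.31, and without tamoxifen clone8_2 it was 0.62. The edgeR p before adjustment was under 0.05 in 2 of the 7 fits that left out 1 library. Over all 16 alternative fits, of edgeR or DESeq2, the p of Socs2 before adjustment was under 0.05 in 10. The smallest adjusted p among them was 0.550 (edgeR, clone 4 alone). With RLE scaling factors the groups overlapped (38.1 CPM in the highest vehicle and 37.7 CPM in the lowest tamoxifen library) and the edgeR p before adjustment was 0.0501.

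Socs3 (ENSMUSG00000053113, chromosome 11, 117966079 to 117970047, minus strand), for which part of the RefSeq promoter window is printed above, stood at 31.8, 36.0 and 11.2 CPM in vehicle libraries. Tamoxifen libraries held 11.2, 23.02, 13.6 and 16.8 CPM. The 2 clone 4 vehicle libraries were the highest of the 7, and vehicle clone8_1 was level with the lowest tamoxifen library. The log2 fold change was -0.71 ± 0.39 (SE), with an interval from -1.57 to 0.16, and ran from -1.08 without vehicle clone8_1 to -0.42 without vehicle clone4_2. Pim1 (ENSMUSG00000024014, chromosome 17, 29490753 to 29496112, plus strand) ranged from 33.8 to 47.0 CPM in vehicle and from 36.9 to 65.1 CPM in tamoxifen libraries. Its log2 fold change was 0.23 ± 0.23 (SE), with overlapping groups. The strand setting of the counting is not given in the sources used here, and annotated exons on the other strand overlap exons of Pim1 by 488 bp, of Il6ra by 242 bp, of Stat3 by 72 bp and of Jak1 by 4 bp.

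**Figure D3:**
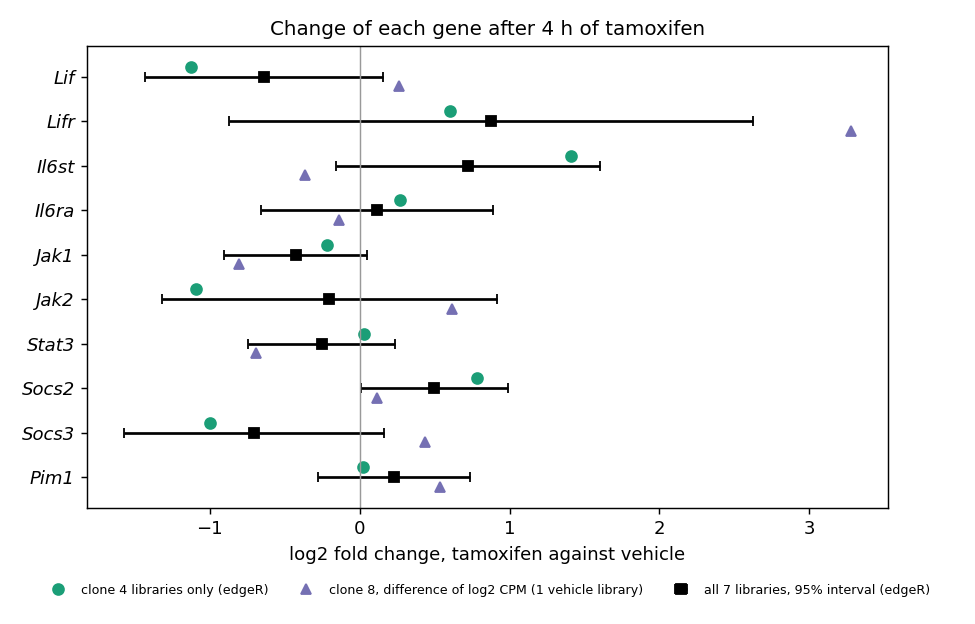
Log2 fold change of tamoxifen against vehicle for each pathway gene: squares with 95% intervals from all 7 libraries, circles from the clone 4 libraries alone, and triangles for the difference of mean log2 CPM in clone 8, which has 1 vehicle library. The interval of Socs2 (0.01 to 0.99) lies above 0 and those of the other 9 genes include 0. For Lif, Il6st, Il6ra, Jak2, Stat3 and Socs3 the circle and the triangle lie on opposite sides of 0. The circle of Stat3 is close to 0 (0.03).

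Within clone 4, with 2 libraries in each condition, 4 of the 10 genes reached an edgeR p under 0.05 before adjustment, where the share of the 16060 genes tested was 7.87%. None was called, and 0 of those 16060 genes were. The 4 were Il6st (log2 fold change 1.41), Socs2 (0.79), Socs3 (-0.99992) and Lif (-1.13). In CPM the clone 4 groups did not overlap for 6 of the 10 genes, where the share of the same 16060 genes was 39.5%: Il6st and Socs2 were higher with tamoxifen, and Lif, Socs3, Jak1 and Jak2 lower. In clone 8 the difference of mean log2 CPM was 0.26 for Lif, -0.36 for Il6st, 0.11 for Socs2 and 0.43 for Socs3, each against the single vehicle library. For Lif, Il6st and Socs3 the sign was therefore the opposite of that in clone 4. Leaving out both libraries numbered clone8_1 gave the same 4 genes (share of all tested genes 7.25%). The count was 2 of 10, Lif and Socs3, without vehicle clone8_1 alone (share 6.54%), 1 of 10, Lifr, without vehicle clone4_2 (share 6.84%), and 3 of 10, Il6st, Socs2 and Socs3, without a filter on low counts (share 6.36%).

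The test of that difference, the interaction of clone and condition, was passed by 0 of the 10 genes, where 3.16% of all tested genes were called. The interaction (clone 8 minus clone 4, log2) was -1.75 ± 0.55 (SE) for Il6st (edgeR adjusted p = 0.182). For Socs3 it was 1.44 ± 0.59 (SE; edgeR adjusted p = 0.307). These were the 2 of 10 with an unadjusted p under 0.05, where the share of all tested genes was 14.8%. DESeq2 called the interaction of Il6st (adjusted p = 0.0408), 1 of the 10, where it called 989 of 16248 genes. Without a filter on low counts edgeR called that of Lifr (adjusted p = 0.0172), 1 of the 10, where it called 991 of 28364 genes. Clone 8 rests on 1 vehicle library, clone8_1, so a difference between clones and a peculiarity of that library cannot be told apart.

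**Figure D4:**
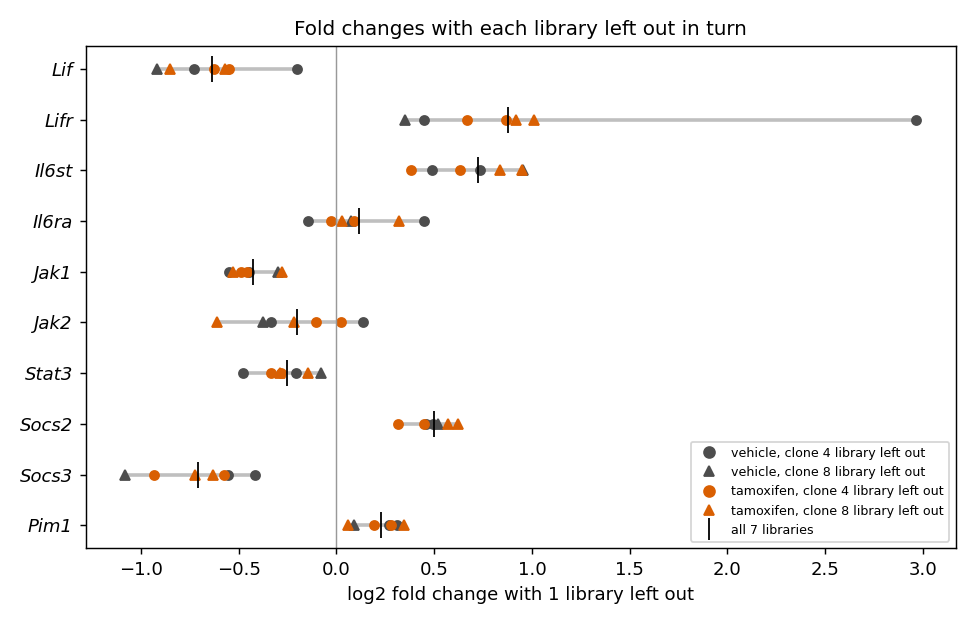
Log2 fold change of each pathway gene with 1 library left out in turn (colour and shape show the group and clone of the library left out) and with all 7 libraries (black tick). Points of Lif, Lifr, Il6st, Jak1, Stat3, Socs2, Socs3 and Pim1 stay on one side of 0, those of Il6ra and Jak2 lie on both, and the Lifr point without vehicle clone4_2 lies apart at 2.96.

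The pathway has many further parts, and 36 other genes of gp130 and JAK-STAT signalling were examined as a list. Of these, 30 passed the filter, 12 with a fold change above 0 and 18 below. None was called, 2 had an unadjusted p under 0.05 (6.67%, against 5.97% of all tested genes), and the median log2 fold change was -0.07. Groups did not overlap in CPM for 6.67% of the 30, against 8.45% of all tested genes. Besides Lif, the ligands of the family were scarce: the 8 listed had medians of at most 1.18 CPM per kb, and Il11 had no count in any library. Of the 4 other receptor chains only Il11ra1, the receptor of interleukin 11, passed the filter, with a median of 3.35 CPM per kb. Osmr, which pairs with gp130 for oncostatin M, had no count in any of the 7 libraries, where 3 counts correspond to 0.0710 to 0.129 CPM. Cntfr, the receptor of ciliary neurotrophic factor, had at most 4 counts in a library. Among receptor chains that partner gp130, Lifr, Il6ra and Il11ra1 were thus the ones detected above the filter.

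Jak3, the kinase of receptors that share the common gamma chain, had the smallest p of that list. It stood at 12.9, 12.7 and 10.3 CPM in vehicle libraries and at 27.0, 31.5, 17.6 and 17.7 CPM in tamoxifen libraries. The lowest tamoxifen library lay above the highest vehicle library, again with the larger values in clone 4. Its log2 fold change was 0.97 ± 0.27 (SE). The edgeR p of Jak3 was 0.00499 before and 0.794 after adjustment. Exons of Insl3 on the same strand overlap those of Jak3 by 404 bp. Tyk2, the remaining Janus kinase, had a log2 fold change of 0.24 ± 0.25 (SE).

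Of 6 other STAT genes 3 had fold changes above 0 and 3 below. Stat4 had an edgeR p of 0.0363 before adjustment but 0 or 1 count in each vehicle library and 21, 8, 8 and 0 in the tamoxifen libraries, so no fold is given. Its exons overlap those of Gm28177 on the same strand by 1033 bp. The 6 other genes of the SOCS family, Socs1, Socs4 to Socs7 and Cish, were split 3 and 3, with log2 fold changes from -0.35 to 0.60. The 8 genes for PIAS proteins and phosphatases, which restrain STAT or JAK activity or, for Ptpn11, link gp130 to the Ras and ERK cascade, had changes from -0.31 to 0.11. They included the most abundant genes of the list, Ptpn2 (75.8 CPM per kb; log2 fold change -0.31 ± 0.17, SE) and Pias4 (66.6 CPM per kb; 0.04 ± 0.15, SE). Ctf2, a ligand gene, did not overlap between groups, at 1.36 to 1.68 CPM in vehicle and 0.753 to 1.35 CPM in tamoxifen libraries, with a log2 fold change of -0.50 ± 0.50 (SE).

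Genes known from other work as targets of STAT3 formed a list of 16, of which 15 passed the filter. Fold changes were above 0 for 8 and below for 7, with a median of 0.02. None was called and 2 had an edgeR p under 0.05 before adjustment (13.3%, against 5.97% of all tested genes), in opposite directions. Klf4, a naive pluripotency factor, stood at 49.6, 67.0 and 54.6 CPM in vehicle and 74.8, 89.8, 92.8 and 62.7 CPM in tamoxifen libraries, with a log2 fold change of 0.49 ± 0.19 (SE). Its groups overlapped through tamoxifen clone8_2. Fos, an immediate early gene that ERK and STAT3 are both known to induce, stood at 63.1, 95.6 and 44.2 CPM in vehicle and 42.1, 16.2, 17.8 and 28.3 CPM in tamoxifen libraries. Every tamoxifen library lay below every vehicle library, and the log2 fold change was -1.37 ± 0.36 (SE). The edgeR p of Fos was 0.00343 before and 0.794 after adjustment. Groups did not overlap for 6.67% of the 15 tested targets, against 8.45% of all tested genes.

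The 2 most abundant targets, both pluripotency factors, were Nanog (266 CPM per kb) and Klf5 (116 CPM per kb). Nanog ranged from 428 to 705 CPM in vehicle and from 433 to 639 CPM in tamoxifen libraries, with a log2 fold change of -0.16 ± 0.21 (SE). Klf5 had a log2 fold change of 0.10 ± 0.33 (SE), and the difference between conditions had opposite signs in the 2 clones: 361 and 424 CPM in clone 4 vehicle against 222 and 249 CPM in clone 4 tamoxifen libraries, and 243 CPM in clone 8 vehicle against 433 and 561 CPM in clone 8 tamoxifen libraries.

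**Figure D5:**
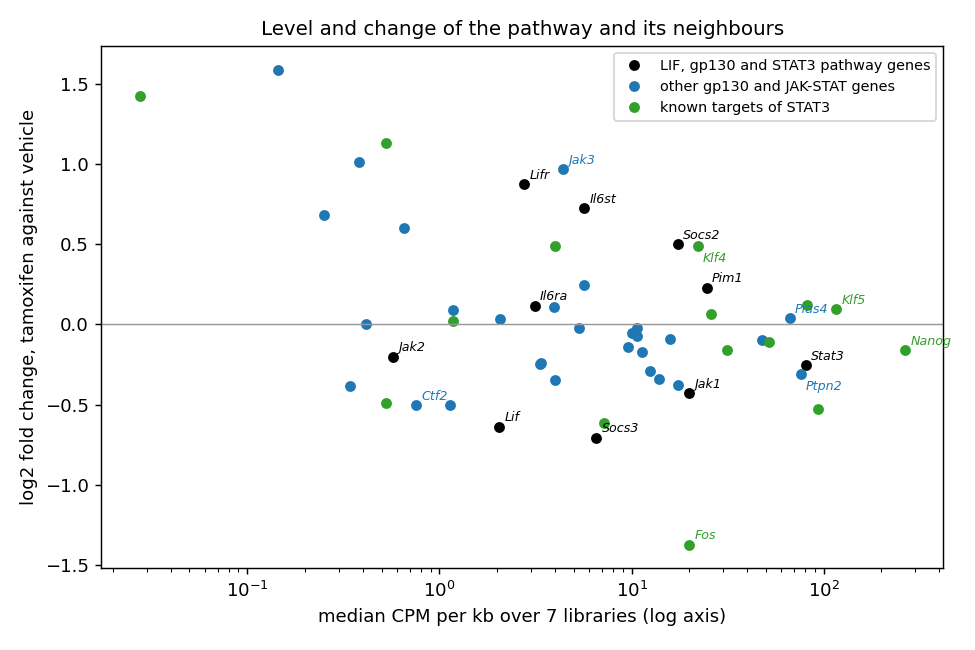
Median level over 7 libraries (CPM per kb, log axis) against log2 fold change of tamoxifen against vehicle for the 10 pathway genes (black), other gp130 and JAK-STAT genes (blue) and known targets of STAT3 (green) that passed the filter and had more than 3 counts in each group. Points lie on both sides of 0 in all 3 lists, with Fos lowest at -1.37.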

How the data were processed

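The authors deposited raw counts per Ensembl gene, 1 column per library, not normalised. The submitters' processing notes name bcl2fastq 2.19.1, STAR 2.5.3a and the build mm10; the counting program, annotation and strand setting are not given in the sources used here. Without molecular identifiers, counts from these amplified low-input libraries (2 ng of RNA) are not independent molecules, so limits from counts cover counting error only. Of 52636 genes, 52489 matched GENCODE M21 (GRCm38) by identifier, the source of symbols, coordinates and lengths; the typical length is the median over basic coding transcripts.

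The test was that of edgeR 4.0.16 (R 4.3.3) (TMM factors, filterByExpr by group, quasi-likelihood test, condition as the only term, Benjamini-Hochberg adjustment over 16248 genes, adjusted p under 0.05 called). DESeq2 1.42.0 served as an alternative. Log2 CPM used a prior count of 2. The text names the 10 pathway genes and, from the 2 further lists, genes with an unadjusted p under 0.05 or groups that do not overlap and the 2 highest per kb; Il11, Il11ra1, Osmr, Cntfr and Tyk2 were added after their values were seen. The pathway genes and lists were chosen with earlier results of these data known.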

Additional observations from a re-analysis of the deposited data

Results flagged for a closer look

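Klf5 passed the test of the clone by condition interaction, at 1.77 ± 0.30 (SE) on the log2 scale (clone 8 minus clone 4; edgeR adjusted p = 0.0171). In clone 4 the log2 fold change was -0.75, with both tamoxifen libraries below both vehicle libraries, and in clone 8 the difference of mean log2 CPM was 1.02, with both tamoxifen libraries above the single vehicle library. The interaction of Klf5 was called in all 5 alternatives as well, transcript length correction included (adjusted p = 0.0399, edgeR). It rests on vehicle clone8_1, the only clone 8 vehicle library and one that stood apart from the others, so a difference between clones and a peculiarity of that library cannot be told apart. In the same test 3.16% of all tested genes were called.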

How the results depend on the processing

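The tamoxifen effect on the 10 pathway genes was refitted under 16 alternatives, 160 values in all, of which 0 were called; in 152 the direction was kept and in 8 it reversed. Without both libraries numbered clone8_1, the log2 fold change became -0.00845 for Il6ra, 0.0297 for Stat3 and -0.0771 for Pim1, and in clone 4 alone it was 0.0264 for Stat3. With single libraries left out, Il6ra ran from -0.14 to 0.45 and Jak2 from -0.61 to 0.13. Genes called numbered 4 with DESeq2 and 2 without both clone8_1 libraries, and 0 otherwise. The pathway genes with an unadjusted p under 0.05 numbered 1 in the reported fit. They numbered 0 with RLE scaling (share of all tested genes 6.01%), 3 without a filter on low counts (6.36%) and 4 without both clone8_1 libraries (7.25%). In clone 4 alone they numbered 4 (7.87%), and with single libraries left out 0 to 3 (3.91% to 8.97%). The 3 were Lif, Il6st and Socs2 without tamoxifen clone8_1, where the share was 4.21%. The other gp130 and JAK-STAT genes, 2 in the reported fit, numbered 1 among genes with a mean of at least 50 counts (6.73%) and 1 with clone as a term (6.09%). They numbered 4 without both clone8_1 libraries, 5 in clone 4 alone and 1 to 2 with single libraries left out, beside the same shares as above. For the STAT3 targets, also 2 in the reported fit, the range with single libraries left out was 1 to 3. Interaction genes, 514 as reported, numbered 989 with DESeq2, 991 without a filter and 99 with the transcript length correction. The causes of these shifts were not tested.

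With the replicate block (clone and number), 0 genes were called. In that fit 2 of the 10 pathway genes had an unadjusted p under 0.05, Socs2 and Lifr (log2 fold change 2.10), where the share of all tested genes was 4.44%. The deviations of libraries with the same number correlated at 0.0078, 0.021 and -0.068, and 0 of 3 vehicle libraries correlated best with their own number. Over all pairs of a vehicle and a tamoxifen library the correlations ran from -0.085 to 0.062. With 3 vehicle libraries, these values cannot decide whether libraries of the same number shared an origin. Jak2 (53 to 157 counts) and Lifr (33 to 604 counts) had the fewest counts of the 10 genes in a library.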
